A study of Mus musculus with 54 samples.

Results

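The CXC chemokines are a family of small secreted proteins that steer the movement of leukocytes, and 10 of their mouse genes were followed here through RNA-seq of cultured lung fibroblasts and of whole lungs. The members were the rows carrying the symbols Cxcl1, Cxcl2, Cxcl5, Cxcl9, Cxcl10, Cxcl12, Cxcl13, Cxcl14, Cxcl15 and Cxcl16, which are 10 of the 43615 gene symbols listed in the 4 deposited tables. Each symbol was listed once in every table. The libraries came from wild-type animals and cells. In culture, primary mouse lung fibroblasts from lungs of mice aged 6 to 8 weeks were held for 24 h in 1 of 4 media: complete, free of branched-chain amino acids (BCAA), BCAA-free with BCAA returned, or BCAA-free with the matching keto acids (BCKA) returned. They then received PBS or 20 ng/mL transforming growth factor β1 (TGF-β1), the cytokine that turns fibroblasts into matrix-producing myofibroblasts, for 48 h. This gave 8 groups of 3 libraries. The lungs came from male C57BL/6 mice aged 10 to 12 weeks in 3 experiments, each with a PBS group, a group given bleomycin, a drug that injures the lung and leads to fibrosis, and a bleomycin group with an added treatment. In the water experiment, bleomycin was given into the trachea at 1.25 mg/kg, the added treatment was 3 mM BCAA in the water, begun 7 days earlier, and collection was on day 14 (3 libraries per group). In the diet experiment the dose was 1.25 mg/kg, a BCAA-free diet ran for 14 days from day 7, and lungs were taken on day 21 (4 libraries per group). In the BT2 experiment the dose was 3.5 mg/kg, and from day 3 mice received daily intraperitoneal 10% DMSO or 20 mg/kg BT2, which blocks the kinase that restrains BCKA breakdown, for 11 days before collection on day 14 (3 libraries per group). The description of the PBS mice of that experiment gives a normal diet and names no injections, although their library names carry DMSO.

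CXC chemokines bind G-protein-coupled receptors on leukocytes. Cxcl1, Cxcl2 and Cxcl5 attract neutrophils through Cxcr2, and Cxcl15, called lungkine, is a neutrophil attractant made by mouse lung epithelium. Cxcl9 and Cxcl10 are induced by interferons and attract activated T cells through Cxcr3. Cxcl12 retains and guides many cell types through Cxcr4 and is removed by the scavenging receptor Ackr3. Cxcl13 draws B cells into lymphoid follicles through Cxcr5. Cxcl16 is made as a membrane-bound ligand of Cxcr6 and is shed by the protease Adam10, and Cxcl14 is made by epithelium and stroma and has a less settled receptor. Fibroblasts of the lung are a known source of several of these ligands, and inflammatory induction of Cxcl1, Cxcl2 and Cxcl10 runs through NF-κB.

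Promoter sequences were available from RefSeq (build GRCm38.p6) for 8 of the 10 members. The 250 bases before the start of Cxcl1, Cxcl2, Cxcl10, Cxcl13 and Cxcl14 are shown because these genes differed between TGF-β1 and PBS in the fibroblasts in both directions. That of Cxcl9 is shown because this interferon-induced member was very low in culture and was called higher with bleomycin in the water and diet experiments. Each is written 5′ to 3′ on the gene's strand, and capitals mark matches on either strand to GGAATTTCC, the core of an NF-κB type site, or to GAAANNGAA, a shortened interferon response element. The 2 motifs did not overlap in any of them.
Cxcl1: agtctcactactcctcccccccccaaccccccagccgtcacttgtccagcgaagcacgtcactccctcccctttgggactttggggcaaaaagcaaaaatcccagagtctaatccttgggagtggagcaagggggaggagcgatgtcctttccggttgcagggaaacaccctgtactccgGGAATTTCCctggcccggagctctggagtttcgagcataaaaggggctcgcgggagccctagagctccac
Cxcl2: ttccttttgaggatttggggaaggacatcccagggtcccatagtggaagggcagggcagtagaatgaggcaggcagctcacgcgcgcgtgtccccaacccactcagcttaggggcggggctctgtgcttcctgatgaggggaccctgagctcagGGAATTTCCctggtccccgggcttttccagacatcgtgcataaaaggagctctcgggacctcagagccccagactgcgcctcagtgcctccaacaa
Cxcl10: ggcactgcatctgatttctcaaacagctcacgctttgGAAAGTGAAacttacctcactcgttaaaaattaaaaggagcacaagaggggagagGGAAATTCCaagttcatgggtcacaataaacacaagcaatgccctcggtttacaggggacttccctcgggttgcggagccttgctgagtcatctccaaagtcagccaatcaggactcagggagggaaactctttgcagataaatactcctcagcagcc
Cxcl9: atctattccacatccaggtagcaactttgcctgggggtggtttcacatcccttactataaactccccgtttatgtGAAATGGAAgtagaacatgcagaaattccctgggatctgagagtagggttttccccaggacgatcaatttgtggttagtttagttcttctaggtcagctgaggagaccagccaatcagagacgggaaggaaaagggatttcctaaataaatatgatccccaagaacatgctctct
Cxcl13: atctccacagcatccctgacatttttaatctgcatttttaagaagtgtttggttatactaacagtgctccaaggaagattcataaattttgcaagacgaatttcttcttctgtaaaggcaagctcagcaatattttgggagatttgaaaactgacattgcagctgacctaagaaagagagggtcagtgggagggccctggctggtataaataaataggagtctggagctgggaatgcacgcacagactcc
Cxcl14: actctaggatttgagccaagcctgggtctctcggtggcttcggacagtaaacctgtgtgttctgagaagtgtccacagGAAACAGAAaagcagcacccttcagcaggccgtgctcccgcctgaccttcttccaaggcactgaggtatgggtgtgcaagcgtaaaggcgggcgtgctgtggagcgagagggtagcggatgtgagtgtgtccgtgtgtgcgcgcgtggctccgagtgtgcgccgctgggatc
The windows were chr5:90890995-90891244 on the plus strand for Cxcl1, chr5:90903649-90903898 on the plus strand for Cxcl2 and chr5:92348890-92349139 on the minus strand for Cxcl10. Those of Cxcl9 and Cxcl13 were chr5:92328080-92328329 on the minus strand and chr5:95956689-95956938 on the plus strand, and that of Cxcl14 was chr13:56296552-56296801 on the minus strand. GGAATTTCC began 70 bases before the start in Cxcl1, 96 bases before it in Cxcl2 and, on the opposite strand, 158 bases before it in Cxcl10. The same letters occurred in 94 of 32851 mouse promoter windows of this length (0.286%). GAAANNGAA began 213 bases before the start in Cxcl10, 175 in Cxcl9 and 172 in Cxcl14, and occurred in 2342 of the 32851 windows (7.13%). Cxcl12, Cxcl13 and Cxcl15 held neither motif in this window. Only these letters were sought, so a window without a match may still hold other NF-κB type or interferon response sequences. A match describes letters only and shows no binding.

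Values were TPM, transcript levels scaled for gene length and library total, in tables scaled separately, so tests were made within a table. The number of reads behind each library is unknown. Levels were compared on the log2(TPM + 1) scale with limma across all genes of a table, and a change was called where the p, adjusted by Benjamini-Hochberg across every tested gene, was under 0.05. Adding 1 shrinks the fold of genes near or under 1 TPM. Nothing in the descriptions says that replicates were separate cultures, so p-values measure the spread between libraries. Some libraries stood apart. In BCAA-free medium with TGF-β1, replicate 1 had fibroblast markers summing to 28381 TPM against 6444 as the lowest of its group. This sum need not follow most of its 5 genes. With TGF-β1 in complete medium its median went from 9055 to 17684 TPM. Yet 4 of the 5 genes fell there and 1 rose (36.4% and 12.2% of all genes). The PBS lungs of the diet experiment had low endothelial marker sums (123 to 202 TPM against 915 to 1827 in the PBS lungs of the other experiments) and mitochondrial transcripts at 12.2% to 17.3% of TPM, against 4.41% to 5.29% in its bleomycin lungs. On the BCAA-free diet replicate 3 was at 16.5% and the rest at 4.38% to 5.66%. Cardiac markers summed to 513 to 1406 TPM in the PBS lungs of the diet experiment and 475 to 1112 TPM in those of the BT2 experiment, against 32.5 to 75.5 TPM and 49.1 to 64.2 TPM with bleomycin. Club cell markers summed to 120512 to 290476 TPM in PBS and 24870 to 29452 TPM in bleomycin lungs of the diet experiment. They summed to 139529 to 249694 and 50967 to 110920 TPM in the water experiment. In the BT2 experiment they summed to 106694 to 151399 and 11593 to 24637 TPM. Alveolar type 1 markers went the other way in the diet experiment, from 429 to 694 TPM to 3526 to 4706 TPM. The part of these values in the bleomycin changes was not tested. Replicate 3 of bleomycin with BCAA water and replicate 1 of bleomycin with DMSO were far from their groups for several members, as given below. The label's extraction text names heart for the tissue RNA, whereas the sample labels say lung. Alveolar type 2 marker sums of at least 2337 TPM were measured in each lung library.

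In resting fibroblasts Cxcl12 was by far the most abundant member. In complete medium with PBS it stood at 2111, 2036 and 2115 TPM in the 3 libraries. Cxcl13 followed at 116, 107 and 113 TPM and Cxcl5 at 82.0, 72.2 and 91.1 TPM, with no overlap between them. Cxcl16 lay at 23.2 to 25.2 TPM, Cxcl1 at 11.3 to 12.0 TPM, Cxcl14 at 8.39 to 10.9 TPM and Cxcl10 at 3.96 to 4.37 TPM, with no overlap between neighbours in that order. Cxcl2 was at 0.661 to 1.14 TPM. Cxcl9 and Cxcl15 did not exceed 0.356 TPM in any of the 24 culture libraries and were not tested there, which left 8 of the 10 members among 13084 genes tested.

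TGF-β1 lowered the neutrophil attractants and the B cell attractant in complete medium and raised Cxcl14. Of the 8 members tested, 5 fell (36.4% of all genes tested fell) and 1 rose (12.2% of all genes rose). The median change of the 8 was -1.13 on the log2 scale, against -0.20 over all genes. The all-gene shares depended on the scaling, and after median centring of the libraries 23.0% fell and 21.3% rose.

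Cxcl13 showed the largest difference among the members in complete medium. Its level was 116, 107 and 113 TPM with PBS and 1.93, 1.37 and 1.08 TPM with TGF-β1, a log2 change of -5.53 (SE 0.14, adjusted p = 4.11e-18). Every TGF-β1 library was far below every PBS library. Cxcl5 went from 82.0, 72.2 and 91.1 TPM to 1.64, 1.70 and 1.91 TPM, a log2 change of -4.91 (SE 0.18, adjusted p = 1.94e-15). Cxcl1 went from 11.3, 11.7 and 12.0 TPM to 1.02, 0.945 and 0.433 TPM, a log2 change of -2.83 (SE 0.14, adjusted p = 3.92e-13). Both neutrophil attractants were thus below 2 TPM in every one of these TGF-β1 libraries. Cxcl2, already low, went from 0.661, 0.724 and 1.14 TPM to 0, 0.0429 and 0.126 TPM, a log2 change of -0.79 (SE 0.16, adjusted p = 0.000236). With 0.1 added in place of 1 the change of Cxcl2 was -2.63.

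Cxcl10, the interferon-induced member detected in these cells, fell from 4.17, 4.37 and 3.96 TPM to 1.06, 1.89 and 0.108 TPM. The log2 change was -1.46 (SE 0.25, adjusted p = 4.49e-05), and the TGF-β1 libraries were spread widely but lay below all PBS libraries. With 0.1 added in place of 1 it was -2.44.

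Cxcl14 moved the other way. It rose from 8.39, 10.9 and 9.25 TPM to 69.9, 77.6 and 67.0 TPM, a log2 change of 2.79 (SE 0.20, adjusted p = 1.67e-10). Cxcl12 stood at 1560, 1587 and 1459 TPM with TGF-β1, below every PBS library, but its log2 change of -0.44 (95% interval -0.92 to 0.03, adjusted p = 0.117) was not called. With only the compared groups in the fit it was called (adjusted p = 0.00331). Cxcl16 was at 18.2, 25.7 and 17.1 TPM, which overlapped the PBS libraries (log2 change -0.27, adjusted p = 0.317).

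**Figure D1:**
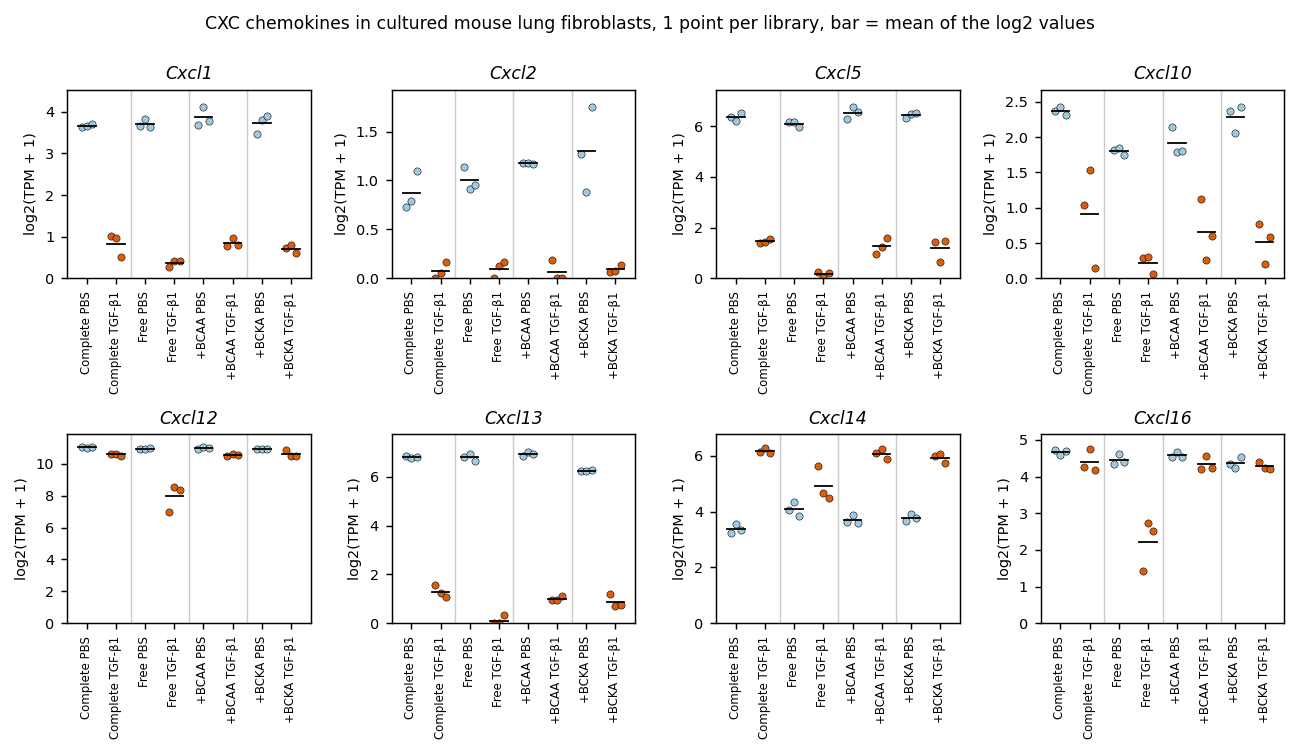
Levels of the 8 tested members in cultured fibroblasts, as log2(TPM + 1) on the vertical axis, with 3 libraries per group as points and the mean of the log2 values as a bar (blue, PBS; orange, TGF-β1; Free, BCAA-free medium; + BCAA and + BCKA, returned to it). Cxcl12 and Cxcl16 drop in BCAA-free medium with TGF-β1, to 126 to 372 TPM and 1.69 to 5.61 TPM, below the other 3 TGF-β1 groups.

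The genes that surround these ligands were followed in lists chosen for the family. Of 12 NF-κB and interferon regulators, all tested, 11 fell with TGF-β1 in complete medium and 0 rose (36.4% and 12.2% of all genes), with a median of -0.79 against -0.20 over all genes. Nfkbia, the inhibitor that NF-κB itself induces, went from 84.6, 87.1 and 82.6 TPM to 27.5, 27.1 and 27.6 TPM (log2 change -1.59, adjusted p = 2.76e-12). Tnfaip3, a ubiquitin-editing brake on the same pathway, went from 24.1, 25.8 and 22.6 TPM to 5.56, 4.90 and 6.82 TPM (log2 change -1.91, adjusted p = 2.65e-10). Of the 6 receptors for the inducing cytokines 3 fell, near the all-gene share of 36.4% without centring (23.0% after centring). The log2 changes were -1.33 for Il1r1, -0.71 for Il17ra and -0.80 for Ifngr1. The inducers Tnf, Il1b and Ifng were listed at 0 in all 24 culture libraries. Among 8 inducing cytokines only Tnfsf13b, a survival factor of B cells, was tested, and it went from 71.1, 75 and 70.8 TPM to 17.5, 18.3 and 16.4 TPM (it fell by 2.00 on the log2 scale, adjusted p = 7.51e-13).

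BCAA removal by itself called no member in resting fibroblasts (0 of 8, against 0.910% of all genes in either direction). At an unadjusted p under 0.05, 2 differed: Cxcl14 at 15.6, 19.4 and 13.5 TPM was above every complete-medium library (log2 difference 0.70, adjusted p = 0.137), and Cxcl10 at 2.54, 2.61 and 2.35 TPM was below (-0.56, adjusted p = 0.562). Cxcl14 was called when only the compared groups were fitted (adjusted p = 0.0482).

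Under TGF-β1 the picture was different, and 7 of 8 members were lower without BCAA than with it (24.8% of all genes, 30.3% after centring). The median log2 difference of the 8 was -1.22 against 0.10 over all genes. Cxcl12, at 1560, 1587 and 1459 TPM in complete medium, was at 126, 372 and 328 TPM in BCAA-free medium (log2 difference -2.62, SE 0.23, adjusted p = 2.46e-09). Cxcl16 was at 18.2, 25.7 and 17.1 TPM in complete and 1.69, 5.61 and 4.69 TPM in BCAA-free medium (-2.17, SE 0.22, adjusted p = 1.88e-08). These were the members with little difference between PBS and TGF-β1 in complete medium. Replicate 1, the library with the high fibroblast marker sum, was the lowest of its group for both, and without it the differences were -2.13 and -1.78, each still called.

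Members already near the floor went lower still. Cxcl13, at 1.93, 1.37 and 1.08 TPM in complete medium with TGF-β1, was listed at 0 in 2 BCAA-free libraries and at 0.254 TPM in the other (-1.18, adjusted p = 2.41e-07). Cxcl5 was at 0.197, 0.0471 and 0.148 TPM in BCAA-free medium against 1.64 to 1.91 TPM in complete medium (-1.28, adjusted p = 3.25e-06). With 0.1 added in place of 1 these differences were -3.32 for Cxcl13 and -3.06 for Cxcl5. Cxcl1 was at 0.219, 0.330 and 0.339 TPM against 0.433 to 1.02 TPM (-0.46, adjusted p = 0.00907; -1.12 with 0.1 added). The call of Cxcl1 was lost without replicate 1 of complete medium with TGF-β1 (adjusted p = 0.0551) and with only the compared groups in the fit (0.0548).

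Cxcl10 overlapped between the 2 groups, at 0.219, 0.236 and 0.0424 TPM against 0.108 to 1.89 TPM (-0.69, adjusted p = 0.0199). Its call was lost without replicate 1 or 2 of complete medium with TGF-β1 or replicate 3 of the BCAA-free group and with only the compared groups in the fit (adjusted p = 0.118), and the difference ranged from -1.07 without replicate 3 of complete medium to -0.38 without replicate 2. Cxcl14 stood at 48.3, 24.3 and 21.3 TPM against 67.0 to 77.6 TPM (-1.26, adjusted p = 1.59e-05). Cxcl2 was near 0 in both groups and did not pass (adjusted p = 0.909).

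Seen from the side of TGF-β1, all 8 tested members changed in BCAA-free medium: 7 fell (34.9% of all genes fell) and 1 rose (29.2% of all genes rose). After centring 32.3% of all genes fell and 32.9% rose. The median of the members was -2.61 against -0.06 over all genes. Cxcl14 was the member that rose, from 15.6, 19.4 and 13.5 TPM to 48.3, 24.3 and 21.3 TPM (log2 change 0.83, SE 0.20, adjusted p = 0.00112). Without replicate 1 of the BCAA-free TGF-β1 group the change of Cxcl14 was 0.48, and with only the compared groups in the fit it was not called (adjusted p = 0.0602). The difference of the 2 TGF-β1 responses was tested directly, and 6 of 8 members responded lower in BCAA-free than in complete medium (18.4% of all genes, or 23.4% after median centring). It was -2.55 for Cxcl12 (SE 0.33, adjusted p = 1.54e-06), -1.96 for Cxcl14, whose rise was smaller (SE 0.29, adjusted p = 9.03e-06), and -1.95 for Cxcl16 (SE 0.31, adjusted p = 2.27e-05). It was -1.16 for Cxcl13 and -1.03 for Cxcl5 (adjusted p = 5.71e-05 and 0.00258). For Cxcl1 it was -0.50 (adjusted p = 0.0465), a call that ended when any of 10 of the 12 libraries was left out. With 0.1 added the values were -3.30 for Cxcl13, -2.80 for Cxcl5 and -1.17 for Cxcl1. Cxcl2 and Cxcl10 did not pass (log2 differences -0.11 and -0.13, 95% intervals -0.56 to 0.35 and -0.86 to 0.60).

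Returning either BCAA or BCKA brought most of these members up again under TGF-β1. With BCAA, 6 of 8 rose (25.0% of all genes, 29.7% after centring) with a median of 1.00 against -0.07 over all genes. With BCKA 5 of 8 rose (25.1% of all genes, 30.1% after centring) with a median of 0.90. Cxcl12, at 126, 372 and 328 TPM without BCAA, was at 1409, 1534 and 1478 TPM with BCAA (log2 change 2.56, adjusted p = 3.76e-09) and at 1823, 1449 and 1433 TPM with BCKA (2.64, adjusted p = 2.35e-09). Cxcl16 was at 17.6, 22.7 and 17.8 TPM with BCAA and 19.9, 17.7 and 17.6 TPM with BCKA (2.12 and 2.06). Cxcl14 was at 67.0, 75.7 and 58.1 TPM with BCAA and 62.1, 66.4 and 52.8 TPM with BCKA (1.16 and 1.01). All libraries of both add-back groups lay above those of the BCAA-free group for these 3 genes.

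Cxcl5 and Cxcl13 rose too, but to low levels. Cxcl5 reached 0.955, 1.38 and 2.05 TPM with BCAA and 1.72, 0.575 and 1.80 TPM with BCKA (log2 changes 1.10 and 1.02; 2.76 and 2.58 with 0.1 added). Cxcl13 reached 0.909, 0.920 and 1.18 TPM with BCAA and 1.30, 0.627 and 0.699 TPM with BCKA (0.89 and 0.78; 2.85 and 2.62 with 0.1 added). Cxcl1 rose with BCAA (0.48, adjusted p = 0.00647; 1.21 with 0.1 added), while with BCKA its log2 difference of 0.33 had an adjusted p of 0.0503. That value was called with 0.1 added (adjusted p = 0.00242), after median centring (adjusted p = 0.0144) and with only the compared groups (adjusted p = 0.0460). Cxcl10 overlapped the BCAA-free group and was not called with BCAA (0.45, adjusted p = 0.127) or BCKA (0.30, adjusted p = 0.306). Without replicate 2 of the BCAA group with TGF-β1, the BCAA change of Cxcl10 was called (0.64, adjusted p = 0.0472). Cxcl2 was called with neither (adjusted p = 0.845 and 0.967).

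BCKA and BCAA were also set against each other under TGF-β1, and no member differed (0 of 8, against 0.268% of all genes in either direction; 0 at an unadjusted p under 0.05). The intervals bound the difference: for Cxcl12 it was 0.08 (95% interval -0.40 to 0.56), for Cxcl14 -0.14 (-0.56 to 0.28) and for Cxcl16 -0.06 (-0.52 to 0.39). With BCAA returned, TGF-β1 against PBS lowered 5 of 8 members (33.2% of all genes, 20.8% after centring) and raised 1 (11.5%, 19.5% after centring). With BCKA returned it lowered 5 (34.3%, 20.1% after centring) and raised 1 (11.5%, 19.7% after centring), and in both media the members called were Cxcl1, Cxcl2, Cxcl5, Cxcl10 and Cxcl13 as lower and Cxcl14 as higher. Cxcl12 was at 1919, 2156 and 2057 TPM with PBS and returned BCAA and at 1970, 1977 and 1957 TPM with PBS and returned BCKA, above every matching TGF-β1 library, and was not called in either medium (adjusted p = 0.103 and 0.246). It was called in both with only the compared groups in the fit (adjusted p = 1.29e-06 and 0.00740).

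Among resting cells neither return called a member: 0 of 8 with BCAA (0.260% of all genes in either direction; Cxcl5 alone at an unadjusted p under 0.05) and 0 of 8 with BCKA (0.665%; Cxcl13 alone). Cxcl13 was at 74.1, 75 and 76.0 TPM with BCKA and 112, 122 and 98.5 TPM in BCAA-free medium, with no overlap (log2 difference -0.55, 95% interval -0.84 to -0.26, adjusted p = 0.0900). It was called with only the compared groups in the fit (adjusted p = 0.0308).

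Of 8 CXC receptors only Ackr3, which takes up Cxcl12, was expressed well enough in the fibroblasts to be tested. In complete medium it was at 7.42, 7.87 and 6.28 TPM with PBS and 13.7, 14.3 and 14.5 TPM with TGF-β1 (log2 change 0.89, adjusted p = 4.69e-05). In BCAA-free medium it was at 9.06, 8.52 and 8.52 TPM with PBS and 1.21, 2.83 and 1.61 TPM with TGF-β1 (-1.79, adjusted p = 8.38e-10). The TGF-β1 responses thus had opposite signs in the 2 media, and the test of their difference gave -2.68 (adjusted p = 1.39e-09). Ackr3 was at 11.7 to 15.4 TPM with BCAA returned and 13.0 to 14.3 TPM with BCKA. In the test of the response difference 4 of 12 regulators were higher (29.2% of all genes) and 2 lower (18.4%), both near the all-gene shares, the 2 being Nfkbia (-1.40) and Irf1, an interferon-induced transcription factor (-0.38). Il1r1, the receptor for interleukin 1, was at 111, 116 and 115 TPM in BCAA-free medium with TGF-β1 and 252, 191 and 259 TPM in complete medium (-1.02, adjusted p = 1.13e-07).

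**Figure D2:**
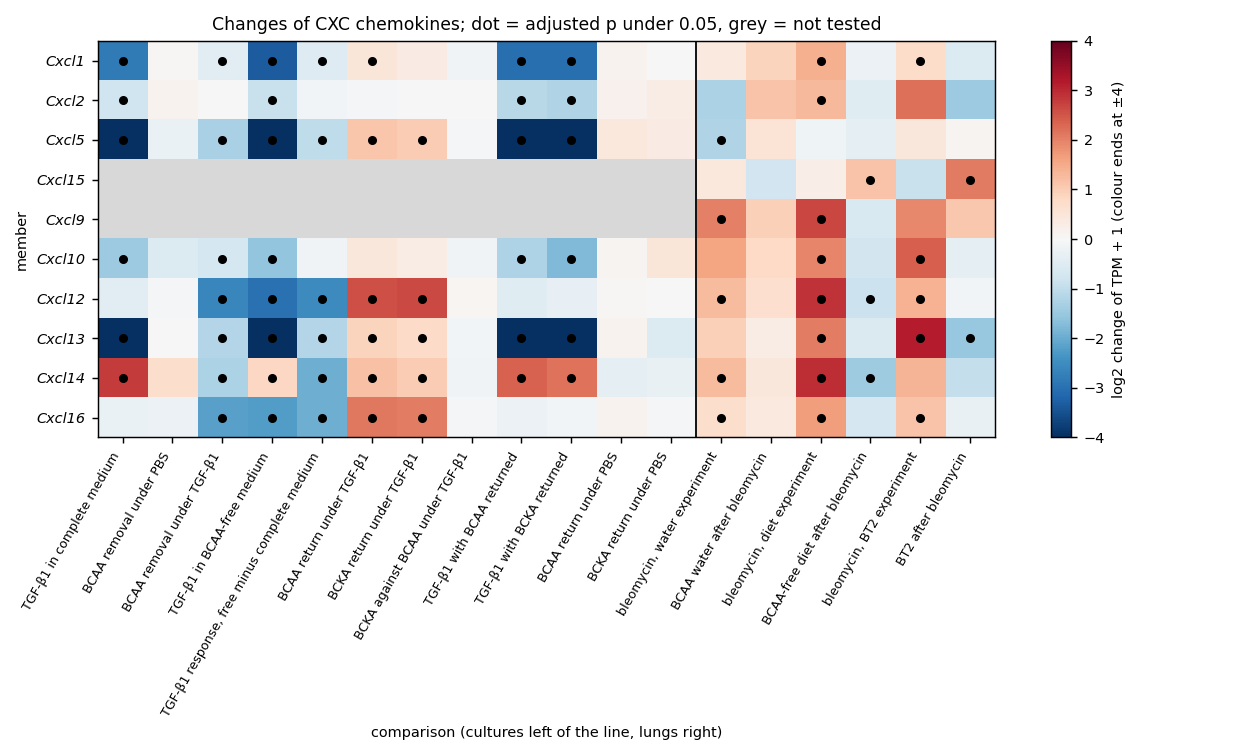
Log2 change of TPM + 1 for the 10 members (rows) in the 18 comparisons (columns), red for higher and blue for lower, with a dot where the adjusted p was under 0.05 and grey where a member was not tested. The columns for BCAA removal and returns under PBS hold no dot, and the map shows Cxcl12 and Cxcl16 blue for BCAA removal under TGF-β1 (-2.62 and -2.17) and red for both returns.

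In whole lungs all 10 members were above the filter in each of the 3 experiments. Cxcl15 was the most abundant, at 1362 to 2107 TPM in PBS lungs of the water experiment, 504 to 772 TPM in those of the diet experiment and 544 to 716 TPM in those of the BT2 experiment. Cxcl14 and Cxcl16 came next in each PBS group (65.6 to 178 TPM and 31.9 to 101 TPM), followed by Cxcl12 (12.6 to 54.1 TPM) and Cxcl13 (3.37 to 43.0 TPM), which overlapped each other in the water and diet experiments. In a bulk lung, fewer cells of a type and less RNA per cell cannot be told apart.

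Bleomycin raised Cxcl12 and Cxcl16 in all 3 experiments, raised Cxcl1, Cxcl2, Cxcl9, Cxcl10, Cxcl13 and Cxcl14 in at least 1, and raised Cxcl5 and Cxcl15 in none. In the water experiment 4 of 10 members rose (14.8% of all genes rose) and 1 fell (7.08% of all genes fell), with a median of 0.82 against 0.09 over all genes. In the diet experiment 8 of 10 rose (48.7% of all genes rose) and 0 fell, with a median of 1.81 against 0.56. Median centring made the all-gene shares there 24.3% higher and 25.3% lower, in place of 48.7% and 12.3%, and in the water experiment 14.3% and 12.3%. In the BT2 experiment 5 of 10 rose (17.3% of all genes rose) and 0 fell, with a median of 1.38 against -0.02. Centring the diet libraries on their medians lowered every bleomycin change there by 0.56.

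Cxcl12 was at 28.9, 32.1 and 29.0 TPM in PBS and 99.0, 60.2 and 67.3 TPM in bleomycin lungs of the water experiment (log2 change 1.27, SE 0.19, adjusted p = 0.000937). Diet-experiment lungs held 13.5, 12.6, 22.8 and 18.9 TPM against 137, 114, 120 and 151 TPM (2.90, SE 0.22, adjusted p = 3.33e-07). Lungs of the BT2 experiment held 32.6, 54.1 and 34.7 TPM against 79.1, 116 and 126 TPM (1.39, SE 0.34, adjusted p = 0.0140), a call lost without PBS replicate 1 or 3 (adjusted p = 0.0561 and 0.0508). No groups overlapped in any of these. Summed fibroblast markers also rose with bleomycin, from 173 to 320 TPM to 375 to 530 TPM in the water experiment. They went from 124 to 179 TPM to 874 to 993 TPM in the diet experiment. In the BT2 experiment they went from 249 to 281 TPM to 881 to 1178 TPM. With BT2 these markers were lower, at 351 to 664 TPM, while Cxcl12 was at 135, 124 and 55.7 TPM (-0.10 against DMSO, adjusted p = 0.861). The part of the markers in the result was not tested.

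Cxcl16 was at 77.3, 80.5 and 101 TPM in PBS and 149, 129 and 138 TPM in bleomycin lungs of the water experiment (0.69, adjusted p = 0.00665). It was at 59.6, 63.6, 77.1 and 31.9 TPM against 184, 189, 171 and 173 TPM in the diet experiment (1.68, or 1.11 after centring, adjusted p = 3.48e-05). It was at 79.4, 86.8 and 84.4 TPM against 160, 199 and 197 TPM in the BT2 experiment (1.13, adjusted p = 0.00152). All bleomycin libraries were above all PBS libraries of their experiment. Macrophage markers summed to 91.0 to 112 TPM in PBS and 273 to 392 TPM in bleomycin lungs of the water experiment, 72.6 to 116 TPM and 552 to 658 TPM in the diet experiment, and 98.2 to 107 TPM and 885 to 1009 TPM in the BT2 experiment. Adam10, which sheds Cxcl16, also rose in all 3 (log2 changes 0.73, 1.5 and 0.90). Across libraries, log2 Cxcl16 and log2 macrophage marker sum had Pearson r of 0.97 (9 libraries, water), 0.93 (12, diet) and 0.96 (9, BT2), a description over groups that share the treatment. In the same order, r was 0.35, 0.77 and -0.20 for Cxcl13 and B cell markers. It was -0.05, -0.41 and -0.16 for Cxcl5 and alveolar type 2 markers, and 0.23, 0.78 and 0.50 for Cxcl9 and T and NK cell markers. Cxcl12 and Cxcl14 with fibroblast markers gave 0.66 to 0.99, and Cxcl1 and Cxcl2 with neutrophil markers gave 0.55 to 0.78. By rank (Spearman), Cxcl1 and Cxcl2 with neutrophil markers gave 0.67 and 0.80 in the water experiment. They gave 0.71 and 0.70 in the diet experiment and 0.23 and 0.33 in the BT2 experiment.

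**Figure D3:**
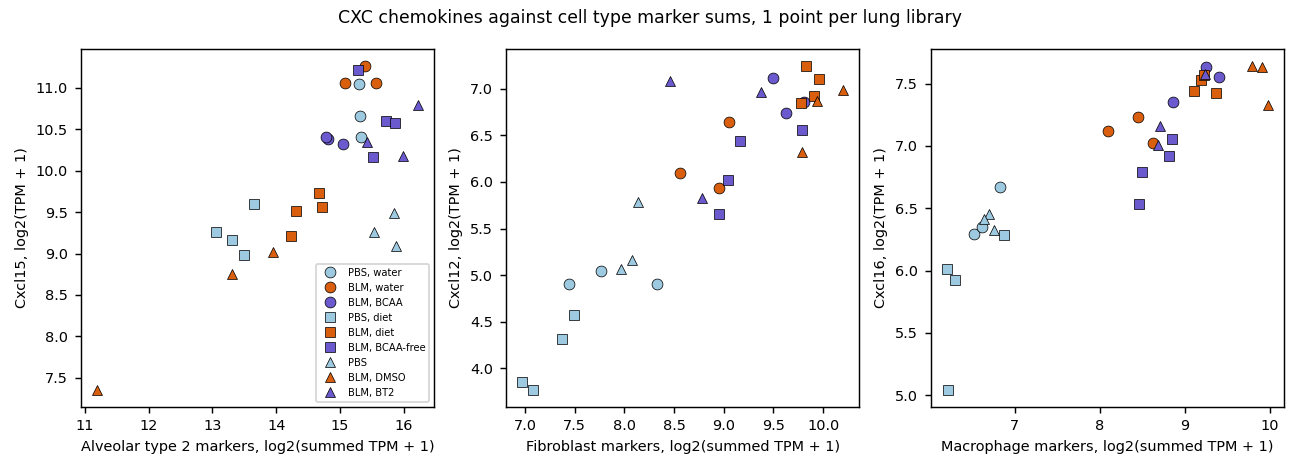
Each point is 1 of 30 lung libraries: Cxcl15 against summed alveolar type 2 markers, Cxcl12 against summed fibroblast markers and Cxcl16 against summed macrophage markers, all axes log2(TPM + 1), with circles for the water, squares for the diet and triangles for the BT2 experiment (blue, PBS; orange, bleomycin; purple, bleomycin with treatment). Cxcl16 rises along its marker sum in each experiment, and 1 bleomycin library with DMSO lies lowest for Cxcl15, at 162 TPM.

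Cxcl14 rose in the water experiment, from 109, 142 and 130 TPM to 348, 322 and 248 TPM (1.25, adjusted p = 0.000533), and in the diet experiment, from 94.3, 65.6, 127 and 95 TPM to 676, 967, 657 and 637 TPM (2.94, adjusted p = 1.55e-06). In the BT2 experiment it was at 128, 178 and 149 TPM against 367, 939 and 168 TPM, which overlapped and was not called (1.36, adjusted p = 0.0777). It was called there without replicate 3 of bleomycin with DMSO, the library at 168 TPM (1.96, adjusted p = 0.0102).

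The interferon-induced pair rose in part. Cxcl9 was at 0.720, 0.183 and 0.474 TPM in PBS and 5.17, 6.16 and 3.39 TPM in bleomycin lungs of the water experiment (2.00, adjusted p = 0.000290; 3.25 with 0.1 added). It was listed in the diet experiment at 0 in 2 PBS libraries and at 0.550 and 0.247 TPM in the others, against 3.66, 7.89, 6.68 and 8.95 TPM (2.67, adjusted p = 0.000406; 4.91 with 0.1 added). Replicate 1 with bleomycin and DMSO, at 0.335 TPM, lay among the PBS libraries (0.146 to 0.553 TPM) while the other bleomycin libraries were at 5.02 and 13.4 TPM. The change there was not called (1.92, adjusted p = 0.0679) and was 2.86 without that library (adjusted p = 0.00329). That library had T and NK cell markers summing to 4.69 TPM against 18.2 and 67.6 TPM in the rest of its group.

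Cxcl10 was at 4.27, 7.47, 1.85 and 0.861 TPM in PBS and 13.1, 12.3, 13.9 and 17.6 TPM in bleomycin lungs of the diet experiment (1.95, adjusted p = 0.000790). It was at 2.15, 4.51 and 2.90 TPM against 9.22, 26.0 and 34.6 TPM in the BT2 experiment (2.39, adjusted p = 0.00492). In the water experiment it was at 12.7, 2.26 and 5.20 TPM against 14.7, 30.3 and 13.7 TPM, with no overlap but no call (1.57, adjusted p = 0.153).

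Cxcl13 rose in the diet and BT2 experiments. In the latter it was at 13.8, 8.57 and 11.2 TPM in PBS and 166, 78.2 and 89.1 TPM with bleomycin and DMSO (3.14, SE 0.39, adjusted p = 0.000587), with a wide gap between the groups. Diet-experiment lungs held 10.2, 3.37, 37.6 and 6.26 TPM against 44.3, 29.1, 53.5 and 51.2 TPM (2.04, adjusted p = 0.00560), with 1 PBS library inside the bleomycin range. In the water experiment it was at 18, 16.9 and 43.0 TPM against 83.2, 38.6 and 31.6 TPM and was not called (0.95, adjusted p = 0.153). B cell markers summed to 6.10 to 13.6 TPM in PBS and 25.7 to 96.7 TPM in bleomycin lungs of the diet experiment, and to 25.8 to 38.1 TPM and 4.35 to 57.0 TPM in those of the BT2 experiment. Their part in the result was not tested.

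The neutrophil attractants differed between experiments. Cxcl1 was at 0.331, 1.00, 0.398 and 0.296 TPM in PBS and 3.85, 1.79, 6.29 and 1.55 TPM in bleomycin lungs of the diet experiment (1.43, adjusted p = 0.00214; 0.86 after centring and 2.43 with 0.1 added). It was at 2.58, 1.13 and 1.24 TPM against 3.61, 3.03 and 3.22 TPM in the BT2 experiment (0.73, adjusted p = 0.0462), a call that ended when any of 5 of the 6 libraries was left out (adjusted p from 0.0509 to 0.157). In the water experiment 1 of 3 bleomycin lungs was high, at 3.29, 26.0 and 2.68 TPM against 7.36, 1.18 and 9.07 TPM, and there was no call (adjusted p = 0.862). Cxcl2 was at 0.250, 0, 0.361 and 0.313 TPM against 2.37, 2.07, 2.28 and 1.5 TPM in the diet experiment (1.31, adjusted p = 0.00447; 2.90 with 0.1 added), and after centring it was no longer called (0.75, adjusted p = 0.0551). Neutrophil markers in the diet experiment summed to 27.3 to 38.5 TPM in PBS and 278 to 1506 TPM in bleomycin lungs, and their part was not tested.

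Cxcl2 in the BT2 experiment reached 46.9 TPM in replicate 1 with DMSO and 2.00 and 2.59 TPM in the others, against 0.496 to 1.41 TPM in PBS (2.19, adjusted p = 0.0828, and 0.90 without that library). That library's neutrophil markers summed to 5732 TPM, against 871 and 974 TPM. Cxcl5 was the member called lower, in the water experiment: it was at 3.77, 7.69 and 8.59 TPM in PBS and 1.66, 2.41 and 2.52 TPM with bleomycin (-1.21, adjusted p = 0.0365). Leaving out any of 5 of the 6 libraries ended this call (adjusted p from 0.0594 to 0.119). Cxcl5 overlapped between the groups of the diet and BT2 experiments (adjusted p = 0.655 and 0.285). Neutrophil markers in the water experiment summed to 1236 to 3960 TPM in PBS lungs and 50.8 to 2581 TPM in bleomycin lungs, and their part in these values was not tested.

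**Figure D4:**
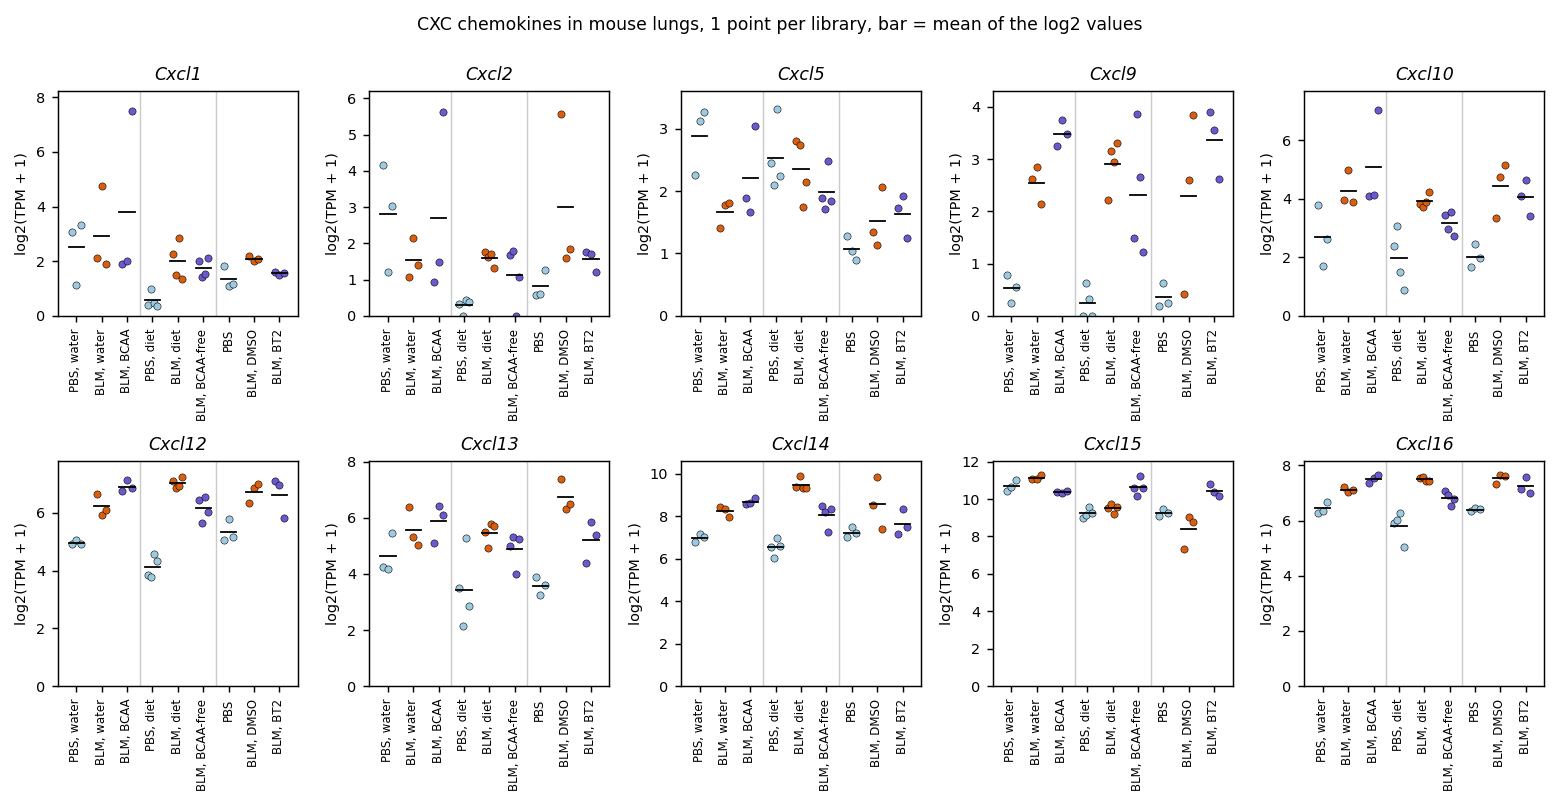
Levels of the 10 members in the 30 lung libraries as log2(TPM + 1), grouped by experiment (vertical lines), with points for libraries and bars for the mean of the log2 values (blue, PBS; orange, bleomycin; purple, bleomycin with BCAA water, BCAA-free diet or BT2). Cxcl12 and Cxcl16 stand above PBS in every bleomycin library of the 3 experiments, while single libraries lie far above their groups for Cxcl1 (179 TPM with BCAA water) and Cxcl2 (48.7 TPM with BCAA water and 46.9 TPM with bleomycin and DMSO).

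BCAA in drinking water called no member against bleomycin alone (0 of 10, against 1.20% of all genes in either direction; 5 at an unadjusted p under 0.05). Cxcl15 was at 1329, 1284 and 1356 TPM with BCAA and 2125, 2131 and 2466 TPM without (-0.76, 95% interval -1.13 to -0.38, adjusted p = 0.0639). Cxcl9 was at 8.46, 12.4 and 10.1 TPM against 5.17, 6.16 and 3.39 TPM (0.95, adjusted p = 0.0824), and Cxcl12 at 106, 138 and 115 TPM against 99.0, 60.2 and 67.3 TPM (0.68, adjusted p = 0.104). None of these groups overlapped, nor did those of Cxcl14 (0.45) and Cxcl16 (0.39), both with an adjusted p of 0.202. Calls appeared when single bleomycin lungs were left out: Cxcl12 without replicate 1 (adjusted p = 0.0433), and Cxcl9 and Cxcl15 without replicate 2 (adjusted p = 0.0486 and 0.0485). Alveolar type 2 markers summed to 28131 to 33737 TPM with BCAA and 34573 to 48314 TPM without.

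Cxcl1, Cxcl2 and Cxcl10 were set by 1 lung in that group. Replicate 3 with BCAA water held 179 TPM of Cxcl1, 48.7 TPM of Cxcl2 and 129 TPM of Cxcl10, whereas the other 2 held 2.70 and 3.00 TPM, 0.920 and 1.81 TPM, and 16.0 and 16.7 TPM. The same lung had 13.0 TPM of Tnf and 231 TPM of Il1b, against at most 1.43 and 25.3 TPM in the rest of its group. Its Nfkbia (535 TPM), Nfkbiz (94.4 TPM) and Tnfaip3 (83.1 TPM) were also above the others, which held at most 236, 24.5 and 18.3 TPM. Its neutrophil markers summed to 4134 TPM, against 339 and 910 TPM. Without it the log2 differences changed sign, to -0.97 for Cxcl1, -0.32 for Cxcl2 and -0.16 for Cxcl10, none of them called.

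The BCAA-free diet lowered Cxcl14 and Cxcl12 and raised Cxcl15 relative to bleomycin alone: 2 of 10 members fell (6.12% of all genes fell) and 1 rose (4.02% of all genes rose; after centring 5.89% fell and 7.42% rose), with a median of -0.58 against -0.09 over all genes. Cxcl14 was at 358, 291, 153 and 329 TPM on the diet and 676, 967, 657 and 637 TPM without it (-1.42, SE 0.27, adjusted p = 0.00622). Replicate 3, the diet library with mitochondrial transcripts at 16.5% of TPM, was the lowest on the diet for Cxcl14 and Cxcl16. The Cxcl14 change stayed called with any 1 library left out (-1.56 to -1.15). Cxcl12 was at 85.7, 49.6, 93.3 and 64.0 TPM against 137, 114, 120 and 151 TPM (-0.86, SE 0.22, adjusted p = 0.0297). The groups did not overlap for either, but Cxcl12 lost its call without bleomycin replicate 1, 3 or 4 or diet replicate 2 or 4 (adjusted p from 0.0650 to 0.0879), without a filter (0.0591) and after centring (0.0636). Cxcl16, at 132, 120, 91.5 and 110 TPM against 171 to 189 TPM, was not called (-0.67, adjusted p = 0.0820) but was after centring and with only the compared groups (adjusted p = 0.0448 and 0.0230). Cxcl10, at 5.60 to 10.7 TPM against 12.3 to 17.6 TPM, was lower without overlap and not called (-0.74, adjusted p = 0.255). Fibroblast markers summed to 496 to 884 TPM on the diet and 874 to 993 TPM without it, and their part was not tested.

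Bleomycin itself gave no call for Cxcl15. It was at 1362, 1616 and 2107 TPM in PBS and 2125, 2131 and 2466 TPM in bleomycin lungs of the water experiment (0.42, adjusted p = 0.103), and at 544, 716 and 610 TPM against 162, 517 and 432 TPM in the BT2 experiment (-0.90, adjusted p = 0.101). The groups did not overlap in either, and the directions were opposite. Without DMSO replicate 1, at 162 TPM, the BT2 experiment gave -0.39 (adjusted p = 0.227), and calls appeared without water PBS replicate 3 (0.59, adjusted p = 0.0346) or DMSO replicate 2 (-1.23, adjusted p = 0.0313). The diet experiment gave 0.26 with overlap (adjusted p = 0.325).

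Cxcl15 was at 1551, 1148, 2368 and 1526 TPM on the BCAA-free diet and 729, 852, 591 and 756 TPM with bleomycin alone (1.13, SE 0.22, adjusted p = 0.00622). The highest diet value was that of replicate 3, the library with mitochondrial transcripts at 16.5% of TPM. This change stayed called with any 1 library left out (0.94 to 1.29). BT2 also raised Cxcl15, from 162, 517 and 432 TPM with DMSO to 1779, 1303 and 1161 TPM (2.07, SE 0.38, adjusted p = 0.0155). No library of either treated group reached down to its bleomycin group. In both experiments the treated lungs also lay above the PBS lungs, which held 504 to 772 TPM and 544 to 716 TPM. Alveolar type 2 markers were also higher in both treated groups than with bleomycin alone. They summed to 8514 to 12804 TPM in PBS, 19134 to 26815 TPM in bleomycin and 39965 to 59279 TPM in BCAA-free lungs of the diet experiment. In the BT2 experiment they summed to 47169 to 60119, 2337 to 15733 and 43613 to 76433 TPM, so that BT2 and PBS lungs overlapped for the markers but not for Cxcl15. Log2 Cxcl15 and this log2 sum had Pearson r of 0.64 (9 libraries, water), 0.84 (12, diet) and 0.86 (9, BT2), as a description, and the part of cell number in the result was not tested. The BT2 call of Cxcl15 was lost without BT2 replicate 1 or 3 (adjusted p = 0.0595 and 0.0640) and with only the compared groups (0.0624), while without DMSO replicate 1 the change was 1.56 (adjusted p = 0.0142).

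With BT2, 1 of 10 members rose (6.34% of all genes rose) and 1 fell (5.41% of all genes fell), both near the all-gene shares. After centring 9.10% of all genes rose and 9.16% fell. The median of the members was -0.33 against 0.12 over all genes. The member that fell was Cxcl13, at 19.7, 57.3 and 40.7 TPM with BT2 and 166, 78.2 and 89.1 TPM with DMSO (-1.52, SE 0.39, adjusted p = 0.0375). All BT2 lungs were below all DMSO lungs and above all PBS lungs. Its call ended without DMSO replicate 1 or BT2 replicate 1 or 3 (adjusted p from 0.1 to 0.109) and without a filter (0.0852). The call also ended with only the compared groups (0.0977) and with the replicate number as a block (0.0625). B cell markers summed to 72.8 to 292 TPM with BT2 and 4.35 to 57.0 TPM with DMSO, higher with BT2. Macrophage markers moved with Cxcl13, at 98.2 to 107 TPM in PBS, 885 to 1009 TPM with DMSO and 408 to 603 TPM with BT2, and their part in the result was not tested. Cxcr5, the receptor of Cxcl13 on B cells, was at 5.55, 21.6 and 9.39 TPM with BT2 and 0.0433, 1.60 and 1.81 TPM with DMSO (2.55, adjusted p = 0.0194). Cxcl1, at 2.05, 1.85 and 1.93 TPM with BT2 and 3.03 to 3.61 TPM with DMSO, did not overlap and was not called (-0.54, adjusted p = 0.156). Cxcl14 was at 142, 320 and 178 TPM against 367, 939 and 168 TPM and was not called (adjusted p = 0.241), but was without DMSO replicate 3 (-1.54, adjusted p = 0.0431). Cxcl16 overlapped, at 142, 190 and 128 TPM against 160, 199 and 197 TPM, and was not called (-0.28, adjusted p = 0.275). Cxcl2, Cxcl5, Cxcl9, Cxcl10 and Cxcl12 also overlapped and were not called (-1.45, 0.115, 1.08, -0.37 and -0.10).

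Of 8 CXC receptors, all tested in lung, bleomycin raised 4 in the water, 5 in the diet and 2 in the BT2 experiment, and lowered 0, where 14.8%, 48.7% and 17.3% of all genes rose. The counts in the diet and BT2 experiments were near those shares. After centring the all-gene share in the diet experiment was 24.3%, and receptors were counted without centring only. The scavenging receptors Ackr1 and Ackr3 rose in all 3. Ackr1, a decoy receptor of venular endothelium and red cells, was at 0.455, 0.392 and 1.22 TPM in PBS and 7.63, 13.4 and 11.6 TPM in bleomycin lungs of the water experiment (2.81, adjusted p = 0.000112). It was at 47.3, 26.3 and 44.2 TPM with BCAA water (1.75 against bleomycin, adjusted p = 0.0200). In the diet experiment it was at 0.221 to 1.84 TPM in PBS, at 100, 40.7, 57.2 and 46.3 TPM with bleomycin and at 5.52, 18.7, 7.06 and 4.03 TPM on the BCAA-free diet (-2.78 against bleomycin, adjusted p = 0.00152). The groups did not overlap in either experiment.

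Ackr3, which shares Cxcl12 as a ligand with Cxcr4, was at 3.70 to 7.35 TPM in PBS, at 211, 136, 140 and 91.2 TPM with bleomycin and at 52.9, 36.1, 43.5 and 46.0 TPM on the BCAA-free diet (4.49 and -1.63, adjusted p = 2.63e-08 and 0.00159). Bleomycin also raised Ackr3 in the water and BT2 experiments (1.18 and 1.56). Cxcr4 was called in the diet experiment (14.2, 13.0, 19.3 and 12.4 TPM in PBS, 64.0 to 82.6 TPM with bleomycin; 2.22, adjusted p = 1.26e-05) but not in the others. Cxcr2, the receptor of the neutrophil attractants, was at 0.102 to 0.218 TPM in PBS and 3.57 to 14.0 TPM in bleomycin lungs of the diet experiment (3.11, adjusted p = 0.000183). In the PBS lungs of the water experiment Cxcr2 was at 14.4 to 38.4 TPM.

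**Figure D5:**
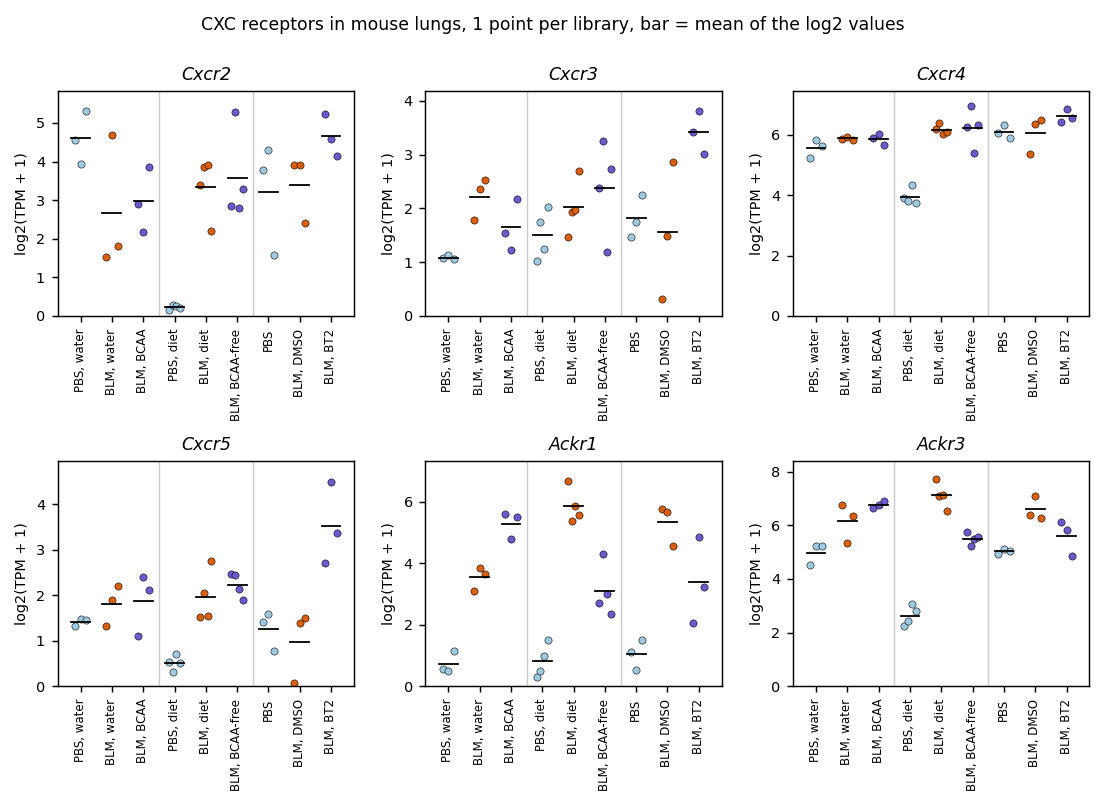
Levels of 6 CXC receptors in the 30 lung libraries as log2(TPM + 1), with points for libraries, bars for the mean of the log2 values and vertical lines between the water, diet and BT2 experiments (blue, PBS; orange, bleomycin; purple, bleomycin with treatment). Ackr1 and Ackr3 are higher with bleomycin than with PBS in all 3, and both are lower on the BCAA-free diet than with bleomycin alone (-2.78 and -1.63).

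Of 5 other CXC ligands, Cxcl17, Pf4 and Ppbp exceeded 5 TPM in lung. Ppbp, a platelet chemokine, fell with bleomycin in each experiment, for example from 157, 135 and 123 TPM to 1.07, 10.6 and 7.23 TPM in the BT2 experiment (-4.57, adjusted p = 0.000637), and was at 31.4, 37.4 and 84.5 TPM with BT2 (3.02, adjusted p = 0.0170). Cxcl17, a mucosal epithelial chemokine, was called in the diet experiment, where it fell from 858 to 1076 TPM to 172 to 243 TPM (-2.28, adjusted p = 8.69e-05). Of 12 NF-κB and interferon regulators, bleomycin raised 12 in the diet experiment (48.7% of all genes, 24.3% after centring). It raised 2 in the water experiment (14.8% of all genes) and 2 in the BT2 experiment (17.3%), both near the all-gene share, and lowered 0 and 3 (7.08% and 13.3% of all genes). Nfkbia was among those lowered in the last (-0.86, adjusted p = 0.00362).

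Genes with the profile most like each member were sought among named genes with a mean of at least 5 TPM. Over the 24 culture libraries, the genes with the highest Pearson r to Cxcl13 were Sfrp2 (0.997), Cldn11 (0.996) and Fbln7 (0.996), and Fbln7 was also among the top 3 for Cxcl5 (0.995) and Cxcl1 (0.994). Cxcl13 itself was the gene most like Cxcl1 (0.995). Gstm2 led for both Cxcl12 (0.993) and Cxcl16 (0.988), and Tlcd2 led for Cxcl14 (0.984). These libraries share the 8 groups, so any gene that follows the groups scores high. Over the 30 lung libraries with each experiment's mean removed, Cxcl1 was most like Tnfaip3 (0.764), Cxcl2 most like Trem1 (0.752) and Cxcl9 most like Hvcn1 (0.920). Cxcl12 was most like Nrp2 (0.970), Cxcl13 most like the macrophage marker Adgre1 (0.865), and Slc34a2, an alveolar type 2 marker, was among the top 3 for Cxcl15 (0.910). Cxcl5 had no gene above Spata13 (0.585).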

How the data were processed

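The 54 libraries (24 of cultured fibroblasts in 8 groups, 30 of lungs in 9 groups) were read from 4 deposited tables of TPM values. The authors made these TPM values with the tools named in the submitters' processing notes (FastQC, Trim Galore, HISAT2, featureCounts of Subread, DESeq2, genome build mm39), without order or versions; no source used here gives the annotation. TPM keeps no depth, so the depth of each library is unknown and no counting error was given; replicate number limits the precision. Per the labels, the batch number separates the cultures and the 3 lung experiments, so no comparison crosses a batch. Samples were grouped by their labels and each column was matched to its sample by title.

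Rows without a symbol (at most 0.367% of a library's TPM) were dropped and rows sharing a symbol were summed. A gene was tested where 3 or more libraries of its table reached 1 TPM (13084 in culture, 17209, 18593 and 18151 in the water, diet and BT2 experiments). limma 3.58.1 in R 4.3.3 was fitted to log2(TPM + 1) with all groups of a table, moderated with a trend, two-sided, with Benjamini-Hochberg adjustment and a threshold of 0.05, in 18 comparisons, 12 in culture and 6 in lung. The script was tested on simulated data. Alternatives were a pseudocount of 0.1, no filter, a filter of 5 TPM, median centring, only the compared groups, the replicate number as a block, and leaving out each library. All 10 members are described, though not each in every comparison. Genes of 6 lists around them were named where they passed or reached 5 TPM. The 10 members, the lists and the marker lists were chosen with earlier results of these data known. Likeness was ranked by Pearson r without a test. Promoters were taken from RefSeq for build GRCm38.p6, which is not the build of the tables, and no coordinates were carried between builds. The authors' own statistical results were not used here. The result for 1 regulator gene is not reported here.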

Additional observations from a re-analysis of the deposited data

Results flagged for a closer look

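The response of 6 members to TGF-β1 differed between BCAA-free and complete medium by the test of the difference itself, with log2 differences of -2.55 for Cxcl12, -1.96 for Cxcl14, -1.95 for Cxcl16, -1.16 for Cxcl13, -1.025 for Cxcl5 and -0.50 for Cxcl1. In the diet experiment, where groups of 4 could be checked for a single distant library, Cxcl1 had 1 PBS lung at 1.00 TPM against 0.398 TPM in the nearest, and Cxcl14 had 1 bleomycin lung at 967 TPM against 676 TPM in the nearest. Chance flags about 1 in 20 groups, and the 10 members gave 30 groups. Cxcl15 was above PBS in every bleomycin lung of the water experiment (log2 change 0.42) and below PBS in every bleomycin lung of the BT2 experiment (-0.90); neither change was called, and the difference between the experiments was not tested.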

How the results depend on the processing

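The number of members called kept its size within 1.5 times under a pseudocount of 0.1, a filter of 5 TPM, no filter, median centring, only the compared groups, a replicate block and the omission of single libraries, with these exceptions. With only the compared groups in the fit, BCAA removal under PBS called 1 member in place of 0, BCKA return under PBS 1 in place of 0, and BT2 after bleomycin 0 in place of 2. For BCAA water after bleomycin the count was 1 in place of 0 with a filter of 5 TPM, and ranged from 0 to 2 when single libraries were left out. For BT2 after bleomycin it was 1 without a filter and ranged from 0 (without BT2 replicate 1 or 3) to 3 when single libraries were left out, and for bleomycin in the BT2 experiment it ranged from 3, without PBS replicate 3, to 6. No called member changed direction in any of these settings.

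Replicate numbers showed no general pairing of the libraries. Same-numbered libraries deviated together with a mean correlation of 0.02 in culture, -0.05 in water, 0.00 in diet and 0.02 in BT2. Single same-numbered pairs in culture ranged from -0.49 to 0.54, and pairs of different number from -0.56 to 0.63. A mean cannot show whether some groups were paired. With the replicate block, BT2 after bleomycin called 1 member, with Cxcl13 no longer called (adjusted p = 0.0625), and every other count stayed within 1.5 times. Members near or below 1 TPM depend on the pseudocount, and the unknown depth limits what can be said of values at 0.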
